A study of Salmo salar with 72 samples.

Results

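The galanin peptides-like gene LOC106573616 and the aldose reductase-like gene LOC106609239 are followed here across cultured liver cells of Atlantic salmon (Salmo salar) given 1 of 3 arsenic compounds. They are 2 of the 25830 genes in the processed table, picked by symbol because they were the genes seen to move at the lowest arsenate dose. Hepatocytes of 6 male fish were held on laminin-coated porous scaffolds at 10 °C for 36 to 40 h and then exposed for 48 h, with each compound on a plate of its own and with its own untreated control. The groups with 6 fish each were arsenite (AsIII) at 0 (control), 3, 10, 30 and 100 µM, and arsenobetaine (AsB) at 0 (control), 10, 50, 100 and 500 µM. Arsenate (AsV) was given at 0 (control), 10, 50 and 100 µM to cells of fish 1 to 3 only. Compound and dose were read from the title of each of the 72 libraries, and some protocol texts name other compounds and doses. A library is the culture of 1 fish at 1 dose. The spread within a group therefore holds differences between animals together with those of culture, library and read counting, which cannot be told apart.

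Galanin is a neuropeptide. Its precursor is cut into the amidated peptide, which acts through G protein-coupled receptors and is known mainly from brain and gut, where it bears on feeding, hormone release and pain. Aldose reductase belongs to the aldo-keto reductases, enzymes that reduce carbonyl groups with NADPH. It turns glucose into sorbitol, the opening step of the polyol pathway, and also reduces aldehydes that arise from lipid peroxidation. In mammalian kidney cells its gene rises under high salt through the transcription factor NFAT5. Arsenite and arsenate are the inorganic forms of arsenic, and arsenobetaine is the methylated form that makes up most of the arsenic in marine fish.

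Libraries held 30.9 to 86.4 M reads (median 38.6 M). The number of genes listed at 0 had a median of 208.5 in AsIII libraries, 249.5 in AsV libraries and 1608 in AsB libraries. Outside the AsB groups, 5 libraries also had over 1000 genes at 0, namely fish 3 at all 3 AsV doses, fish 1 at 100 µM AsIII and fish 5 at 30 µM AsIII; the other 37 had 62 to 676. Hepatocyte markers (21 genes) took 11.8% to 12.7% of reads at 3 µM AsIII and 14.4% to 15.2% in the AsIII controls. They took 14.1% to 15.4% in the AsV controls, 14.2% to 15.4% at 10 µM AsV, 11.3% to 14.4% at 50 µM and 11.9% to 13.4% at 100 µM. Stellate or fibroblast markers (8 genes) took 0.00175% to 0.00243% at 3 µM AsIII and 0.00255% to 0.00327% in the AsIII controls, and 0.00218% to 0.00243% at 100 µM AsV against 0.00316% to 0.00327% in the AsV controls. Erythroid markers (8 genes) had a median share of 0.000305% in the AsIII controls and 0.0011% at 3 µM AsIII, with ranges that overlapped. Their median share was 0.000225% in the AsV controls, 0.00115% at 50 µM AsV and 0.000647% at 100 µM, again with overlapping ranges. The shares sum over genes, and single markers were mixed (limma, adjusted p below 0.05). At 3 µM AsIII 4 of 21 hepatocyte markers rose and 6 fell (median log2 change -0.06). Of the stellate or fibroblast markers 2 rose and 2 fell (median 0.10), and of the erythroid ones 2 rose and 0 fell (median -0.53). Of all genes 29.5% rose and 25% fell. At 100 µM AsV 1 hepatocyte marker fell and 0 others of these sets passed, beside 6.68% of all genes. The part of these shifts in read share in the results was not tested. In bulk RNA, fewer cells of a type and less RNA per cell cannot be told apart. Values below are normalized read counts, that is reads divided by the size factor of the library. Changes are on the log2(value + 1) scale with the standard error (SE) of the fit, and they understate the change of a gene with few reads.

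In AsV libraries the galanin-like gene stood far above its controls. The contrast at 10 µM AsV brought it in and the other doses share its controls, so its AsV values are described and carry no test. The AsV controls had 13.5, 1.74 and 1.86 normalized counts in fish 1, 2 and 3, which is 17, 2 and 2 reads. Cultures of the same fish had 85.4, 25.2 and 45.4 at 10 µM AsV. They had 1124, 696 and 1331 at 50 µM and 542, 590 and 1100 at 100 µM. Every exposed library lay above all 3 controls, and the 10 µM libraries lay below all those at 50 and 100 µM. The log2 differences from control were 3.29 ± 0.61 at 10 µM, 7.71 ± 0.61 at 50 µM and 7.19 ± 0.61 at 100 µM (SE, n = 3). Among the 25465 genes of that fit they took places 1, 2 and 2 from the top. Without fish 3, whose exposed libraries had many genes at 0, they were 2.92, 7.14 and 6.49. Of all genes 6.97% passed at 50 µM and 6.68% at 100 µM (limma), which says nothing of a gene chosen at 10 µM against the same controls.

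The aldose reductase-like gene entered by the same contrast, and its AsV values too are a description. The AsV controls had 10556, 7253 and 8278 normalized counts in fish 1, 2 and 3. With 10 µM AsV the same fish had 46964, 16182 and 24658. With 50 µM they had 111498, 108543 and 98898, and with 100 µM 70626, 77684 and 113291. No exposed library reached down into the control range. At 50 µM AsV this 1 gene took 0.273% ± 0.038 of all reads, against 0.0238% ± 0.0037 in the controls (SD, n = 3). The log2 differences from control were 1.63 ± 0.32, 3.63 ± 0.32 and 3.31 ± 0.32 at 10, 50 and 100 µM, in places 52, 69 and 110 from the top. Without fish 3 they were 1.66, 3.65 and 3.08.

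The calls at 10 µM AsV depend on the method. With DESeq2 on the recovered reads, 2 of 25465 genes (0.00785%) passed an adjusted p of 0.05 there, and these are the 2 genes, with an adjusted p of 0.00209 each that describes how they were chosen. The next gene outside was the interleukin-17 receptor B-like gene LOC106566684 (log2 change 1.80, adjusted p = 0.328), followed by gsr, which encodes glutathione reductase (0.99), and strbp, an RNA-binding protein gene (1.23). With limma, with edgeR and with fish as a block in limma no gene passed at 10 µM AsV (0%). An unadjusted limma p under 0.05 was found for 116 genes, fewer than chance alone would give. The fit has no fish term although cultures pair by fish, so this low count does not show that no gene moved.

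The step from 50 to 100 µM AsV shares no library with that choice. Neither gene changed past the threshold over it. The galanin-like gene was lower at 100 µM than at 50 µM in 3 of 3 fish, by -0.52 ± 0.61, with a 95% interval of the difference from -1.83 to 0.79 (limma, adjusted p = 1.00). For the aldose reductase-like gene the difference was -0.32 ± 0.32, with an interval from -0.9998 to 0.37 and a lower value in 2 of 3 fish (adjusted p = 1.00). No gene at all passed at this step (0%) with limma, edgeR or DESeq2. Of 25465 genes 342 had an unadjusted limma p under 0.05, fewer than chance alone would give. That count too is from the fit without a fish term and does not show that no gene moved.

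**Figure D1:**
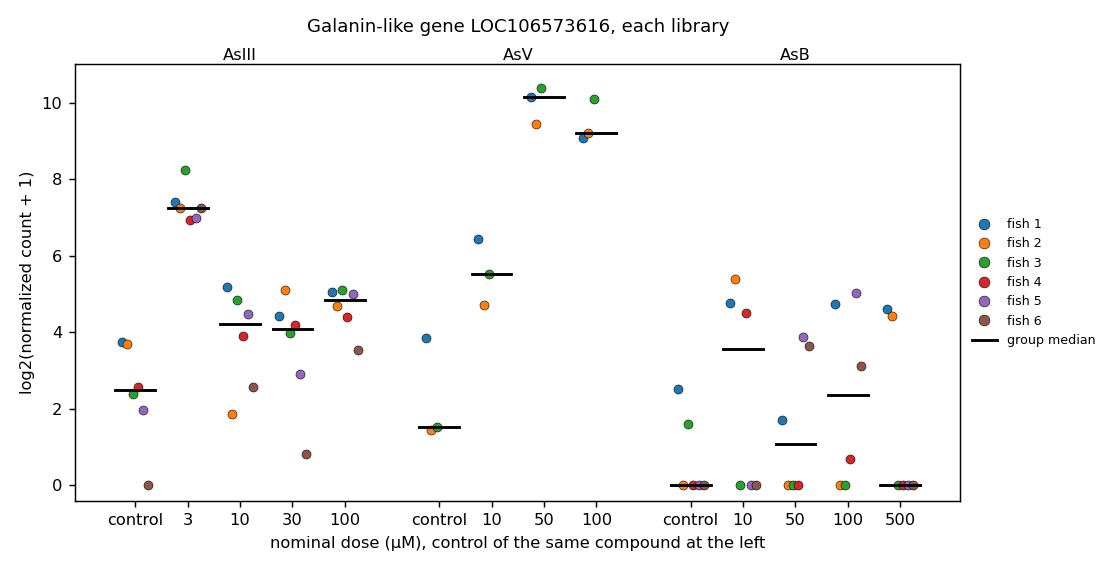
Level of the galanin-like gene in each of the 72 libraries, as log2(normalized count + 1), by compound and nominal dose in µM with the control of each compound at the left. Points are libraries coloured by fish and bars are group medians: the 6 libraries at 3 µM AsIII lie between 121 and 301 normalized counts, above every other AsIII library, and the AsV libraries at 50 and 100 µM lie higher still.

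The AsIII contrasts were not used in the choice and can be tested. The galanin-like gene rose at 3 µM AsIII, the lowest AsIII dose, where it had 121, 150.7 and 301 normalized counts (lowest, median and highest of 6 fish). The AsIII controls had 0, 4.61 and 12.5. The ranges did not overlap, and the gene was higher at 3 µM in 6 of 6 fish. Its mean was 169.5 ± 66.7 at 3 µM and 6.09 ± 5.02 in the controls (SD, n = 6 each), from 832 and 39 reads in all. The log2 change was 4.94 ± 0.63 (limma, adjusted p = 4.3e-08), in place 100 of 25801 genes. At this dose 54.5% of all genes tested passed, 29.5% as higher and 25% as lower. With reads scaled to library totals the median of all genes shifted by -0.26, and 37.8% of the calls were rises, against 54.1% with the authors' scaling. Over all alternatives the change of the galanin-like gene lay between 4.04 and 5.22. An exact permutation test of the gene alone, 6 libraries against 6 and 2-sided, gave p = 0.00216, the smallest that this design allows (adjusted 0.0173 over the 16 such tests). Pairing by fish, where the smallest possible p is 0.03125, gave an adjusted 0.1.

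Above 3 µM the level of the galanin-like gene came back towards the controls. At 10 µM AsIII the lowest, median and highest values were 2.63, 17.7 and 35.04 normalized counts. At 30 µM they were 0.757, 16.1 and 33.5, and at 100 µM 10.6, 27.9 and 33.6. Each of these ranges overlapped that of the AsIII controls, and none overlapped that of 3 µM. The fall between 3 and 10 µM was -3.53 ± 0.63 (limma, adjusted p = 4.8e-05, lower in 6 of 6 fish; 30.3% of all genes passed and 15.7% as lower). The further steps gave -0.23 ± 0.63 between 10 and 30 µM (adjusted p = 0.85; 21.4% of all genes passed) and 1.06 ± 0.63 between 30 and 100 µM (adjusted p = 0.65; 1.67% passed).

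Against the controls the higher AsIII doses gave smaller differences. At 100 µM the galanin-like gene rose by 2.24 ± 0.63 (limma, adjusted p = 0.0046, higher in 6 of 6 fish; 39.9% of all genes passed and 22.6% as higher). This call was lost when all 72 libraries shared 1 estimate of the spread (adjusted p = 0.064), and the change was 1.52 with a pseudocount of 5. Without fish 1 at 100 µM and fish 5 at 30 µM the change was 2.15 (adjusted p = 0.010). At 10 µM the difference was 1.41 ± 0.63 (adjusted p = 0.063, where 47.2% of all genes passed; 0.016 with fish as a block, where 56% passed), higher in 5 of 6 fish, and without fish 2 it was 2.06 (adjusted p = 0.012). At 30 µM it was 1.17 ± 0.63 (adjusted p = 0.13, where 41.6% of all genes passed; 0.047 with fish as a block, where 50.9% passed), higher in 6 of 6 fish. DESeq2 called the gene at 10 and 30 µM as well (adjusted p = 0.021 and 0.0496), beside 49.4% and 44.2% of all genes.

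**Figure D2:**
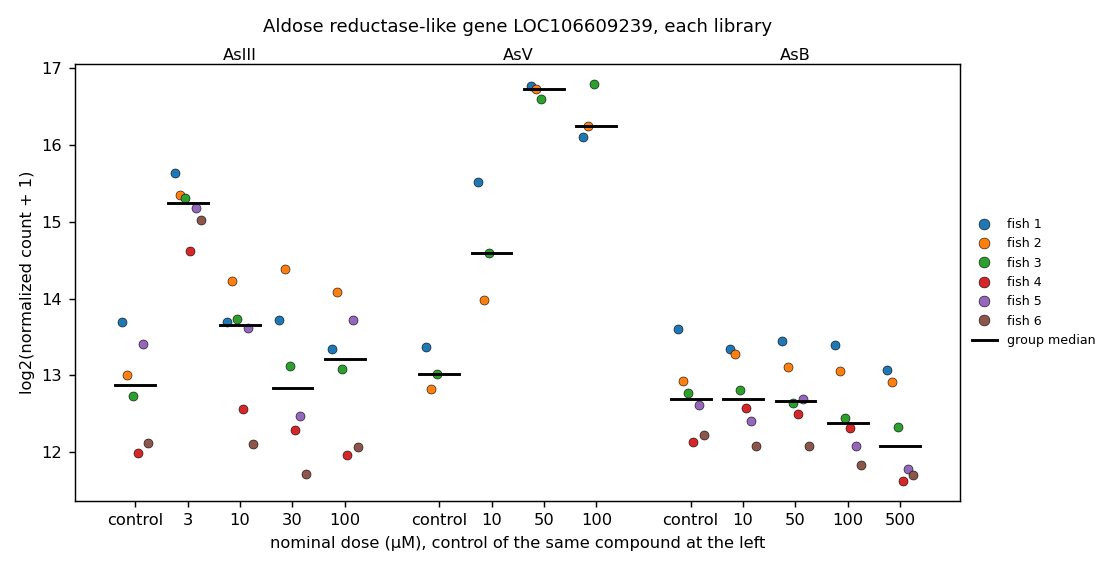
Level of the aldose reductase-like gene in each of the 72 libraries, as log2(normalized count + 1), by compound and nominal dose in µM with the control of each compound at the left. Points are libraries coloured by fish and bars are group medians: the libraries at 3 µM AsIII lie between 25078 and 50775 normalized counts, and fish 1 and 2 tend to lie highest within a group.

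The aldose reductase-like gene also rose at 3 µM AsIII and was lower again at 10 µM. At 3 µM it had 25078, 38795 and 50775 normalized counts (lowest, median and highest), against 4082, 7514 and 13239 in the AsIII controls. Every fish was higher at 3 µM and the ranges did not meet. The log2 change was 2.36 ± 0.44 (limma, adjusted p = 5.6e-05, n = 6), in place 954 of 25801 genes. The exact permutation test of the gene alone again gave the smallest p of the design, 0.00216 (adjusted 0.0173). Paired by fish it also gave the smallest possible p, 0.03125 (adjusted 0.1). The ratio of the 3 µM culture to the control culture of the same fish ran from 1.77 to 2.90 on the log2 scale, with a median of 2.46.

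At 10 µM AsIII the aldose reductase-like gene was lower than at 3 µM in 6 of 6 fish, by -1.86 ± 0.44 (limma, adjusted p = 0.0020). It had 4408, 12948 and 19172 normalized counts at 10 µM, 3377, 7288 and 21477 at 30 µM, and 3986, 9531 and 17388 at 100 µM. These ranges all overlapped that of the controls. The differences from control were 0.50 ± 0.44 at 10 µM (adjusted p = 0.37), 0.13 ± 0.44 at 30 µM (adjusted p = 0.85) and 0.22 ± 0.44 at 100 µM (adjusted p = 0.73). Their 95% intervals ran from -0.40 to 1.403, from -0.78 to 1.03 and from -0.69 to 1.12. In this fit, which has no fish term, a doubling was within each. With fish as a block the SE fell, from 0.44 to 0.24 for the 3 µM change. These intervals are therefore wider than that fit would give. The differences did not pass with the block either (limma, adjusted p = 0.082, 0.69 and 0.47).

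Fish differed in the level of the aldose reductase-like gene in the same way in group after group, a pattern chosen after its values were seen. In the 10 groups of 6 fish, fish 1 was highest in 7 and fish 2 in 3, while fish 4 was lowest in 5 and fish 6 in 5. Across the 5 AsB groups fish 1 had 8578 to 12444 normalized counts and fish 6 had 3342 to 4805, ranges that do not meet. For the galanin-like gene fish 1 was highest in 4 of the 10 groups and lowest in 0, and fish 6 was highest in 0 and lowest in 6, counting libraries tied at 0. Fish 2, 3 and 5 were highest in 2 groups each.

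**Figure D3:**
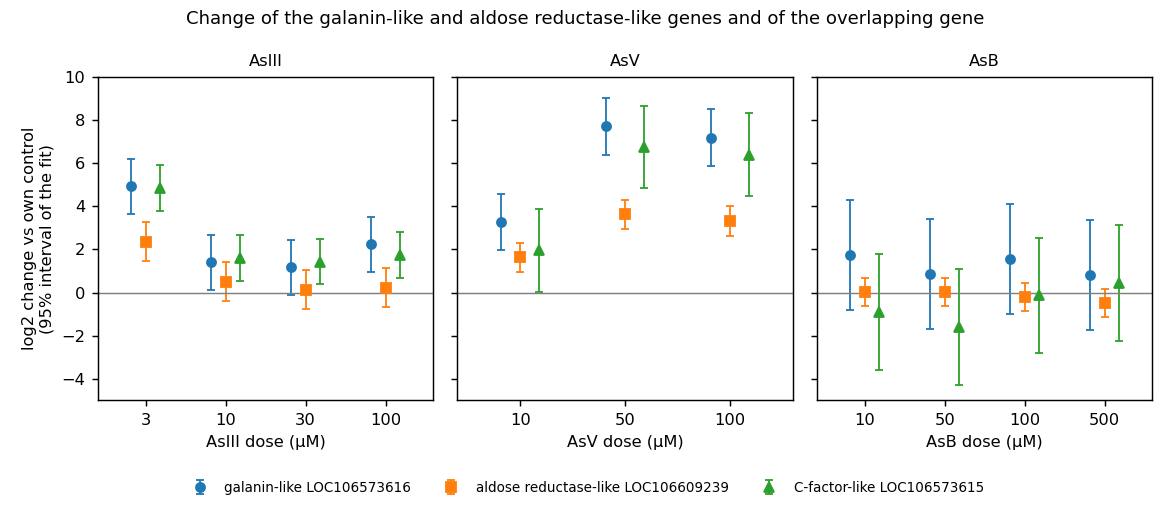
Log2 change of the galanin-like gene, the aldose reductase-like gene and the C-factor-like gene that overlaps the galanin-like one, each dose against the control of its own compound. Points are the fitted changes and bars their 95% intervals, with n = 6 a group for AsIII and AsB and n = 3 for AsV. At 3 µM AsIII the changes are 4.94, 2.36 and 4.85, and at 50 µM AsV 7.71, 3.63 and 6.75.

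In the limma fit of the AsB libraries, without a fish term, neither gene passed the threshold at any AsB dose. The galanin-like gene was listed at 0 in 16 of the 30 AsB libraries, against 1 of 30 AsIII libraries and 0 of 12 AsV libraries, and a count of 0 allows up to 3 reads. The highest values were 4.69 normalized counts in the AsB controls, 40.8 at 10 µM, 13.6 at 50 µM, 31.6 at 100 µM and 23.6 at 500 µM. Each of the 5 groups held a library at 0. The log2 differences from control ran from 0.82 to 1.76, each ± 1.27 (limma, adjusted p = 1.00 at each dose, n = 6), and the interval at 10 µM ran from -0.80 to 4.31. Libraries of the AsB groups had more genes at 0 by median than those of the other compounds, and the part of this in the result was not tested.

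For the aldose reductase-like gene the AsB groups lay close to their controls. Means were 7127 ± 2888 normalized counts in the AsB controls, 7224 ± 2444 at 10 µM, 7189 ± 2436 at 50 µM, 6328 ± 2752 at 100 µM and 5247 ± 2368 at 500 µM (SD, n = 6 each). At 500 µM the difference of -0.47 ± 0.32 did not pass (limma, adjusted p = 1.00). With fish as a block it did (SE 0.083, adjusted p = 0.0077), and the gene was lower at 500 µM in 6 of 6 fish, by -0.01 to -0.82. In that fit 17 of 25492 genes (0.0667%) passed. Without the block no gene passed at any AsB dose (0%) in the limma fit of the AsB libraries or with edgeR. In 1 limma fit over all 72 libraries 11, 1, 1 and 3 genes passed from the lowest to the highest dose. DESeq2 called 2, 1, 0 and 2 genes in the same order (0.00785%, 0.00392%, 0% and 0.00785%). At these doses 790, 542, 715 and 848 genes had an unadjusted limma p under 0.05 without the block, each fewer than chance alone would give. Leaving out the pairing by fish can by itself lower such counts, so they do not show that no gene moved.

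The response to AsIII was set against that to AsB at the shared doses in the fit of all 72 libraries. For the galanin-like gene the AsIII change minus the AsB change was -0.35 ± 1.30 at 10 µM and 0.66 ± 1.30 at 100 µM (limma, adjusted p = 0.89 and 0.80). The intervals, from -2.94 to 2.25 and from -1.94 to 3.26, leave room for a difference either way. For the aldose reductase-like gene the values were 0.46 ± 0.52 and 0.41 ± 0.52 (adjusted p = 0.59 and 0.67). Of all genes, 20% passed in either direction at 10 µM and 13.2% at 100 µM. AsIII at 3 µM, where both genes were high, has no AsB dose beside it.

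Untreated cells of the same 6 fish on the AsIII and AsB plates did not differ past the threshold for either gene. The AsIII controls minus the AsB controls gave 1.71 ± 0.92 for the galanin-like gene and 0.11 ± 0.37 for the aldose reductase-like gene (limma, adjusted p = 1.00 for both). Of all genes 0% passed with limma and with edgeR, and 4 genes (0.0155%) passed with DESeq2. An unadjusted limma p under 0.05 was found for 1065 genes, fewer than chance alone would give. This fit has no fish term either, so the count does not show that the plates were alike.

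Ordered by group median, the galanin-like gene was highest at 50 µM AsV (1124 normalized counts), then at 100 µM AsV (590), 3 µM AsIII (150.7) and 10 µM AsV (45.4). The ranges of the first pair overlapped each other. The range at 3 µM AsIII met neither that above it nor that below it. Every group from 10 µM AsV downwards overlapped the next. For the aldose reductase-like gene the order of the first 4 was the same, with medians of 108543, 77684, 38795 and 24658. There the range at 3 µM AsIII did not reach that at 100 µM AsV but overlapped that at 10 µM AsV. Doses of AsIII and AsV share only 10 and 100 µM. At 10 µM the AsIII and AsV changes were 1.41 and 3.29 for the galanin-like gene and 0.50 and 1.63 for the aldose reductase-like gene, and at 100 µM they were 2.24 and 7.19, and 0.22 and 3.31. These are set side by side with no test, since the AsV contrast chose the genes. The AsIII values are from 6 fish and the AsV values from fish 1 to 3 only, so the sets of animals differ.

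In the RefSeq gene table of assembly Ssal_v3.1, used here for names and neighbours only, the galanin-like gene overlaps the gene LOC106573615, annotated C-factor-like. The use of strand in counting is not given in the sources used here, so reads of this pair cannot be told apart with certainty. LOC106573615 moved with the galanin-like gene. At 3 µM AsIII it had 343, 395 and 795 normalized counts (lowest, median and highest), against 4.88, 17.1 and 38.4 in the AsIII controls, a log2 change of 4.85 ± 0.52 (limma, adjusted p = 2.4e-09). It also passed at 10, 30 and 100 µM AsIII (1.61, 1.43 and 1.74, adjusted p = 0.011, 0.026 and 0.0078), calls lost in the fit of all 72 libraries. The call at 10 µM was also lost without fish 3, and that at 30 µM with edgeR and without fish 1, 3 or 4. In fish 1, 2 and 3 it had 2778, 1325 and 2931 normalized counts with 50 µM AsV, against 31.7, 13.0 and 17.7 in the AsV controls, and 1687, 1083 and 2864 with 100 µM AsV. These were rises of 6.75 ± 0.88 and 6.41 ± 0.88, or 6.49 and 5.98 without fish 3. At 10 µM AsV it was higher in 2 of 3 fish and lower in 1, with a change of 1.96 ± 0.88. The gene is shown because it overlaps one chosen in AsV libraries and may share its reads. Its AsV values are therefore a description too and carry no test.

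In the groups with 97 or more galanin-like reads in every library, the ratio of the overlapping pair lay between 1.84 and 3.11. There were 2.29 to 2.98 reads of LOC106573615 for each galanin-like read at 3 µM AsIII, 1.90 to 2.47 at 50 µM AsV and 1.84 to 3.11 at 100 µM AsV. The AsV controls, with 2 to 17 galanin-like reads, gave 2.35 to 9.50. At 10 µM AsV, with 29 to 79 galanin-like reads, the ratio ran from 0.448 to 3.58, and fish 2 had 13 reads of LOC106573615 beside 29 of the galanin-like gene. In AsB libraries the pair parted: 7 of 30 had reads of both genes, 7 of the galanin-like gene alone (1 to 38 reads), 11 of LOC106573615 alone and 5 of neither. AsB libraries also had more genes at 0 (median 1608, against 208.5 in AsIII libraries). Nearly all nonzero counts of the pair in AsB libraries were even, which was not so in AsIII libraries. The part of either in the parting was not tested. Other neighbours gave smaller values. LOC106573618, a phosphatase regulatory subunit gene, rose by 0.84 ± 0.08 at 3 µM AsIII and 0.68 ± 0.17 at 100 µM AsV (limma, adjusted p = 3.6e-11 and 0.033). LOC106573620, annotated LRP5-like, fell by 0.61 ± 0.11 at 3 µM AsIII (adjusted p = 1.6e-05) and gave -0.66 ± 0.29 at 100 µM AsV (adjusted p = 0.20). The ADAMTS-like gene LOC106573613 passed at neither.

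**Figure D4:**
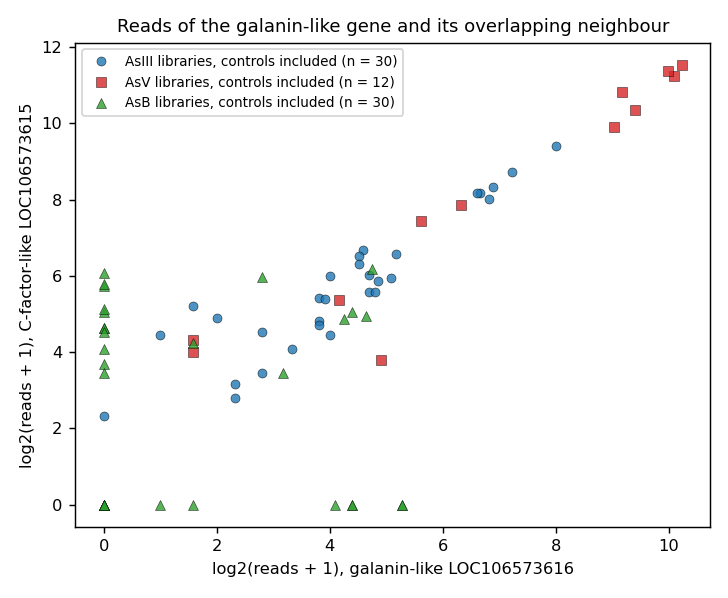
Reads of the galanin-like gene against reads of the C-factor-like gene that overlaps it, both as log2(reads + 1), 1 point a library, with markers for the compound (controls included). At high counts the points lie close to 1 line, with 1.90 to 2.47 C-factor-like reads for each galanin-like read at 50 µM AsV; many AsB libraries lie on an axis, with reads of 1 gene and none of the other.

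The aldose reductase-like gene has a neighbour of the same annotation. LOC106609240, next to it in the same reference order and also named aldose reductase-like, went the other way under AsIII. It had 1434, 1572 and 1865 normalized counts (lowest, median and highest) at 3 µM, against 1837, 2032 and 2507 in the AsIII controls, ranges that overlap, and was lower in 6 of 6 fish. Its log2 changes were -0.40 ± 0.09, -0.73 ± 0.09, -0.90 ± 0.09 and -0.97 ± 0.09 at 3, 10, 30 and 100 µM (limma, adjusted p = 0.00053, 9.5e-08, 3.0e-09 and 7.8e-10). Under AsV it did not pass, at 0.20 ± 0.21 for 50 µM and -0.01 ± 0.21 for 100 µM (adjusted p = 0.63 and 0.99). Neither other copy passed as higher at 3 µM AsIII or 100 µM AsV. LOC106573681 fell by 0.80 ± 0.11 at 3 µM AsIII (adjusted p = 4.7e-07), with 2513 ± 342 normalized counts there and 4339 ± 309 in the controls (SD, n = 6). At 100 µM AsV it gave -0.45 ± 0.31 (adjusted p = 0.44). LOC106576053 was low, with 6.60 ± 3.81 normalized counts at 3 µM AsIII and 9.36 ± 4.01 in the controls. Its changes of -0.52 ± 0.62 there and 0.54 ± 1.03 at 100 µM AsV did not pass (adjusted p = 0.51 and 0.82). How reads that match several copies were counted is not given in the sources used here, so values of near-identical copies are uncertain.

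**Figure D5:**
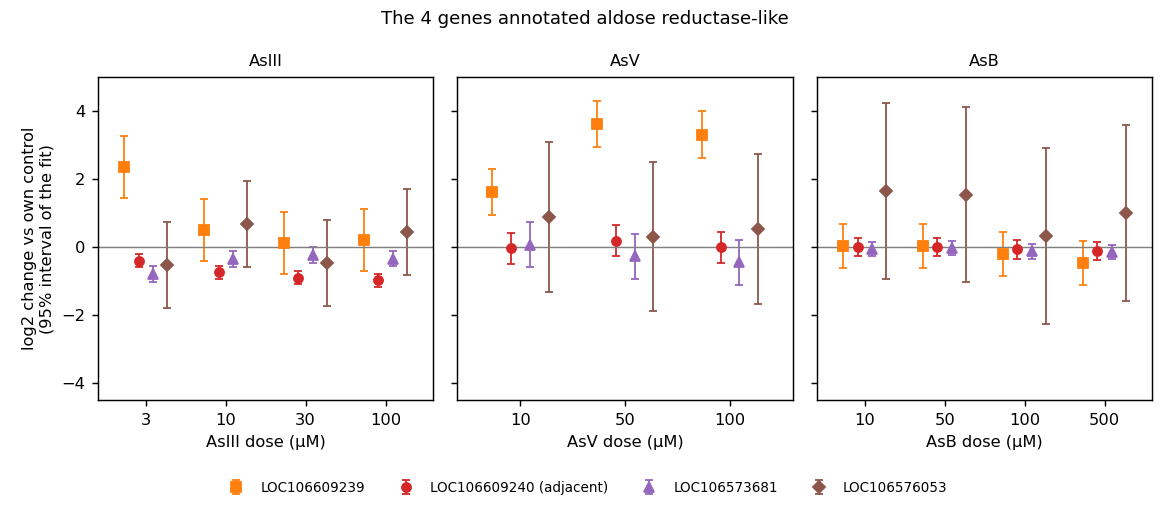
Log2 change of the 4 genes annotated aldose reductase-like, each dose against the control of its own compound, with 95% intervals (n = 6 a group for AsIII and AsB, n = 3 for AsV). LOC106609239 lies at 2.36 at 3 µM AsIII and 3.63 at 50 µM AsV, while the adjacent LOC106609240 lies at -0.40 and 0.20.

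Of 8 other aldo-keto reductase genes, 1 rose and 4 fell at 3 µM AsIII, where 29.5% of all genes rose and 25% fell. Their median was -0.40, against 0.05 for all genes tested. The rise was that of the alcohol dehydrogenase [NADP(+)] A-like gene LOC106580289 (0.92 ± 0.09), an enzyme that reduces aldehydes. LOC106584055, annotated alcohol dehydrogenase [NADP(+)] B, fell by 1.10 ± 0.14. None of the 8 passed at 50 or 100 µM AsV (0 to 1 at each dose over the alternatives), where 6.97% and 6.68% of all genes did. At these doses LOC106580289 gave 0.63 and 0.78, and LOC106584055 gave -0.45 and -0.60.

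Genes that act around aldose reductase in the polyol and fructose pathway had a median change of -0.22 at 3 µM AsIII, against 0.05 for all genes. Of the 8, 1 rose and 4 fell, beside 29.5% and 25% of all genes. The sorbitol dehydrogenase-like gene LOC106562152, for the enzyme that turns sorbitol into fructose, fell by 0.33 ± 0.10, and tkfc, the dihydroxyacetone kinase gene, by 0.97 ± 0.13. The aldolase B-like gene LOC106604855 fell by 3.03 ± 0.76 at 3 µM AsIII and by 3.09 ± 0.58 at 100 µM AsV, and was the 1 gene of the list to pass there; without fish 1 the AsV call was lost (adjusted p = 0.19). The glucokinase-like gene LOC106585167 rose by 0.73 ± 0.23 at 3 µM AsIII, a call lost under library-size scaling and in the fit of all 72 libraries (adjusted p = 0.48). At 50 µM AsV 2 of the 8 fell, beside 6.97% of all genes that passed; without fish 1, 2 or 3 the number was 0, 1 and 0.

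Genes of the osmotic response were counted because aldose reductase is one of its members in mammals. Of the 13 others, 5 rose and 1 fell at 3 µM AsIII, so 6 passed where 54.5% of all genes did, and 29.5% of all genes rose. Their median was 0.50, against 0.05 for all genes. At 10 µM AsIII, where the aldose reductase-like gene did not pass, 7 rose and 3 fell (47.2% of all genes passed). At 3 µM AsIII the sodium/myo-inositol cotransporter-like genes LOC106586629 and LOC106582107 rose by 3.92 ± 0.73 and 1.34 ± 0.13. Their products carry an osmolyte into cells. LOC106575499, of the same annotation, gave -0.005 at 3 µM AsIII and -1.28, -0.89 and -1.47 at 10, 30 and 100 µM. The taurine transporter-like gene LOC106566182 rose by 0.82 ± 0.12 at 3 µM, and ino1a, which encodes inositol-3-phosphate synthase, by 0.88 ± 0.12. The genes with the taurine transporter symbol slc6a6 gave 0.71 and -0.26 at 3 µM. The 4 NFAT5-like genes had changes between -0.47 and 0.51 at 3 µM AsIII and between 0.06 and 1.62 at 100 µM AsIII. At 50 µM AsV 1 of the 12 tested fell and none rose (0 to 3 passed over the alternatives, beside 6.97% of all genes). At 100 µM AsV none passed (0 to 2 over the alternatives, beside 6.68% of all genes).

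The carbonyl detoxification list holds aldehyde dehydrogenases, carbonyl reductases and related enzymes. Its genes were lower at 3 µM AsIII in 13 of 29 cases and higher in 1, beside 25% and 29.5% of all genes. Their median was -0.26, against 0.05 for all genes. Carbonyl reductase genes cbr1 and cbr4 fell by 0.81 ± 0.16 and 0.72 ± 0.14. The carbonyl reductase 1-like genes LOC106563564, LOC106563565 and LOC106563632 gave -0.48, 0.13 and -0.14. The aldehyde dehydrogenase 16A1-like gene LOC106583930 fell by 1.23 ± 0.38, and the 3B1-like gene LOC106585664 rose by 1.03 ± 0.34. Both calls were lost in the fit of all 72 libraries (adjusted p = 0.11 and 0.37), and the second also under library-size scaling and without fish 3. The number of the 29 that passed ran from 7 to 20 over the alternatives. At 50 µM AsV 1 fell and none rose (0 to 4 passed over the alternatives, beside 6.97% of all genes). There LOC106563564, LOC106563565 and LOC106563632 gave 1.54, 0.79 and 0.86, while cbr1 and cbr4 gave -0.05 and -0.39. At 100 µM AsV none passed (0 to 2 over the alternatives, beside 6.68% of all genes).

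Other peptide genes were counted beside the galanin-like gene. The spexin-like gene LOC106566434, a relative of galanin, was the other member of the galanin list in the table, with 65.6 ± 14.3 normalized counts at 3 µM AsIII and 64.7 ± 12.4 in the controls. At 100 µM AsV it gave -0.92 ± 0.75 (limma, adjusted p = 0.53). Of 16 other genes of neuropeptides and their processing, among them those of the amidating enzyme and of prohormone convertase, 0 passed at 3 µM AsIII (0 to 2 over the alternatives) and 0 at 50 and 100 µM AsV with limma, beside 54.5%, 6.97% and 6.68% of all genes. At the higher AsIII doses some did: 1 rose at 10 µM, 2 rose and 2 fell at 30 µM, and 1 rose and 3 fell at 100 µM, where 47.2%, 41.6% and 39.9% of all genes passed. Markers of neuronal or neuroendocrine cells, 9 genes of which none was at 0 in all libraries of a group, took together 0.00078% to 0.00142% of reads at 3 µM AsIII and 0.000485% to 0.000979% in the AsIII controls. Of the 9 genes, 2 rose and none fell, where 29.5% of all genes rose. At 10 µM AsIII, where the galanin-like gene was lower again, the markers took 0.00103% to 0.00170%. At 30 µM they took 0.000545% to 0.00115%. At each of these doses 3 of the 9 rose and 0 fell, where 47.2% and 41.6% of all genes passed. At 50 µM AsV they took 0.000552% to 0.000827%, against 0.000704% to 0.000896% in the AsV controls, and none passed. Their part in the AsIII result was not tested.

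Genes of most alike response were ranked by the root mean square difference between their 11 log2 changes (each dose against its own control) and those of each gene, over 25829 genes, as a description that includes the AsV changes used in the choice. Nearest to the galanin-like gene was the overlapping LOC106573615 (1.34 log2 units), followed by the synaptotagmin-9-like gene LOC106562305 (1.46), a phosphatidylinositol 4-phosphate 5-kinase-like gene (LOC106566653, 1.63), the gap junction beta-2-like gene LOC106582078 (1.72) and a mitochondrial fission factor homolog (LOC106598202, 1.80). Nearest to the aldose reductase-like gene were gsr, whose product recycles oxidised glutathione (0.43), and a gene for the middle subunit of the iron store ferritin (LOC106600955, 0.44). A leucine-rich repeat-containing 16B-like gene (LOC106600234, 0.47), a dual specificity phosphatase 28-like gene (LOC106568652, 0.52) and a second ferritin gene (LOC106600951, 0.52) came next. With 50 µM AsV gsr changed by 2.77 and LOC106600955 by 3.24, beside 3.63 for the aldose reductase-like gene. The 2 chosen genes differed from each other by 2.25, which put the aldose reductase-like gene in place 36 for the galanin-like gene and the galanin-like gene in place 21575 for the aldose reductase-like gene. These places depend on the size of the changes as well as on their pattern over doses. A gene with no change at any dose would lie 1.73 from the aldose reductase-like gene and 3.83 from the galanin-like gene.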

How the data were processed

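RNA-seq of 72 libraries was analysed from the deposited table. Reads were aligned with HISAT2 and counted with featureCounts of Subread, per the submitters' processing notes, which also name DESeq2 1.40.2. Each deposited value is a signal that the authors scaled: the reads of a gene over the size factor of its library. Genome build, strand setting and the handling of reads with several matches are not stated in these sources. Dividing by the smallest step of each library gave whole reads for 100% of values in every library (tolerance 0.01). Every column belonged to 1 of the 72 libraries, and 23011 gene IDs matched the reference gene table.

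The main test was limma 3.58.1 (R 4.3.3; trend, robust) on log2(value + 1), with a mean per group, 1 fit per compound, and 1 fit over 72 libraries for responses and controls. Genes needed a value of 10 or more in as many libraries as the smallest group (6 for AsIII and AsB, 3 for AsV and for all). P-values are 2-sided and Benjamini-Hochberg adjusted over all genes tested, with a threshold of 0.05. edgeR 4.0.16 and DESeq2 1.42.0 on recovered reads, both pseudocounts (0.5 and 5), no filter, library-size scaling, 1 common fit, a fish block, leaving out each fish or 2 libraries, and exact permutations were alternatives. The exact tests cover 16 comparisons. The scripts were tested on simulated data.

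Numbers pair libraries because a fish number marks 1 animal. Same-fish libraries deviated together (mean correlation 0.414 for AsIII, 0.190 for AsV, 0.260 for AsB, over 16671 genes). Single same-fish AsV values ran from -0.294 to 0.552. Between fish the means were -0.106, -0.195 and -0.0806. Deviations were taken from the group mean, which by itself pushes values between fish below 0, so these means are no neutral reference. Over 162 pairs within groups no 2 libraries were copies.

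The 2 genes and all lists were chosen with earlier results of these data known. List genes were matched by name, and wrong matches were removed after the table was read. Named are both genes, other galanin, spexin and aldose reductase genes, up to 4 genes per list with the largest called change at 3 µM AsIII and at 100 µM AsV, the 5 most alike genes of each, and genes next to the threshold at 10 µM AsV. Neighbours and further copies of named list genes were added after seeing the data.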

Additional observations from a re-analysis of the deposited data

Results flagged for a closer look

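A sample far from the others was looked for in each group of 6 libraries, gene by gene. Of these 70 sets of values 4 held one, and chance alone flags about 1 in 20. At 3 µM AsIII the galanin-like gene stood at 301 normalized counts in fish 3, against 121 to 167.7 in the other fish. In the same library the overlapping LOC106573615 stood at 795, against 343 to 474. LOC106573615 also stood apart in fish 1 at 10 µM AsB, with 72.01 against 0 to 20.5. The aldose reductase-like copy LOC106576053 stood at 44.5 in fish 1 at 100 µM AsIII, against 7.06 to 16.2, in 1 of the libraries with over 1000 genes at 0.

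The response of the adjacent copy LOC106609240 differed between the compounds. Its AsIII change minus its AsB change was -0.74 ± 0.17 at 10 µM and -0.91 ± 0.17 at 100 µM (limma over 72 libraries, adjusted p = 0.00088 and 0.00011, n = 6 a group).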

How the results depend on the processing

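Of the tested results of the galanin-like gene under all alternatives, 214 kept direction and side of the threshold, 5 passed anew, 3 no longer passed and 7 turned sign; for the aldose reductase-like gene these were 217, 1, 1 and 10. Every turned sign belongs to a difference that does not pass, and the cause was not tested. Their AsV descriptions kept their sign in all 44 cases each.

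Pairing by fish in the exact test gave no adjusted p under 0.1. This put the galanin-like changes of 4.94 (3 µM AsIII) and 2.24 (100 µM AsIII) past the threshold no longer. The same held for the aldose reductase-like change of 2.36 (3 µM AsIII). Each had an unadjusted p of 0.03125, the smallest that 6 pairs allow, so this alternative cannot show whether they are weaker. The fit over all libraries lost the 2.24. For the galanin-like gene the fish block brought in 1.41 (10 µM AsIII) and 1.17 (30 µM AsIII), and DESeq2 brought in 1.44 and 1.27 there. For the aldose reductase-like gene the block brought in -0.47 (500 µM AsB). The block changed no other call of either gene. The aldose reductase-like AsIII change at 30 µM turned to -0.0011 and the AsB change at 10 µM to -0.012 with library-size scaling. The step of that gene from 30 to 100 µM AsIII turned to -0.0029 with edgeR and to -0.063 without fish 1 at 100 µM and fish 5 at 30 µM. The galanin-like AsIII minus AsB response at 100 µM turned to -1.23 with DESeq2 and -1.18 with edgeR. LOC106609240 at 100 µM AsV turned to 0.0018 with DESeq2 and 0.0050 with edgeR.

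Leaving out 1 fish at a time gave these ranges for the galanin-like gene: 1.18 to 2.06 at 10 µM AsIII, -0.93 to 0.071 for 30 against 10 µM AsIII, and -1.23 to 1.03 and -0.075 to 1.19 for AsIII minus AsB at 10 and 100 µM. For the aldose reductase-like gene they were -0.13 to 0.34 at 30 µM AsIII, -0.14 to 0.19 for 100 against 30 µM AsIII, -0.043 to 0.097 at 10 µM AsB, -0.033 to 0.070 at 50 µM AsB and -0.023 to 0.16 for AsIII against AsB controls. LOC106609240 at 100 µM AsV ran from -0.21 to 0.30.

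Counts of genes called over all genes moved by the largest factor under AsV among the comparisons with over 1000 calls, from 1775 at 50 µM to 170 without fish 1 and 3915 in 1 fit, and from 1701 at 100 µM to 70 without fish 1 and 3666 in 1 fit. Over the alternatives they ran from 7040 to 13132 at 30 µM AsIII (10727 reported), 6642 to 12802 at 100 µM (10306), 4347 to 10698 for 10 against 3 µM (7829), 2928 to 7871 for 30 against 10 µM (5514) and up to 904 for 100 against 30 µM (432), where the lowest count was 263 below that reported. At the AsB doses they reached 11, 1, 1 and 17. Low read counts limit the galanin-like gene most, with 0 to 13 reads in AsIII controls and 0 to 6 in AsB controls. Library depth was no lower for AsB, with a median of 43.8 M reads against 36.7 M in AsIII libraries.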
